A study of Homo sapiens with 6 samples.

Results

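The aldo-keto reductase genes AKR1C1, AKR1C2, AKR1C3, AKR1B1, AKR1A1 and AKR7A2 were followed in 6 RNA-seq libraries of breast cancer cells. These 6 genes, of 20503 in the deposited count table, were chosen on measured values of the same comparison: earlier results of these data, the T47D-TR against T47D difference and the spread among the T47D-TR libraries included, were known when the set was drawn up. Both are therefore described and not tested. The group labelled T47D is a breast cancer cell line that the labels call oestrogen receptor-positive. The group labelled T47D-TR is a tamoxifen-resistant subline made from it and held in 4-hydroxytamoxifen, tamoxifen's active metabolite, at 1 µM. DMEM with 10% fetal bovine serum was the medium of both, and they were sequenced in 3 libraries each, from 1 µg of total RNA after poly(A) selection. The resistant subline and the drug go together in every library, so they cannot be told apart. The labels name no separate cultures for the 3 libraries of a group, so spreads and p-values refer to these libraries and may be technical.

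Aldo-keto reductases are cytosolic enzymes that use NADPH to reduce aldehydes and ketones to alcohols. The AKR1C branch works on steroids: AKR1C1 inactivates progesterone, AKR1C2 inactivates dihydrotestosterone, and AKR1C3 makes testosterone and F-series prostaglandins. AKR1B1 is aldose reductase, which turns glucose into sorbitol at the head of the polyol pathway. AKR1A1 is the broad aldehyde reductase, and AKR7A2 reduces succinic semialdehyde and other reactive aldehydes. In human epithelial cells the AKR1C genes and AKR1B10 are known targets of NRF2, the transcription factor of the antioxidant response.

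The libraries held 17199315 to 19867230 counts, and 3 counts, taken as the floor, correspond to 0.153 to 0.177 CPM, which is counts scaled to a common library size. The libraries labelled T47D did not match their label in its defining marker: ESR1, the oestrogen receptor alpha gene, had at most 4 counts in any of the 6 libraries, or 0.204 CPM. CDH1, the E-cadherin gene, stood at 2.12 ± 0.741 CPM (SD, n = 3) in the libraries labelled T47D, beside 769 ± 10.9 CPM for the vimentin gene VIM, although the luminal keratin gene KRT8 stood at 1336 CPM. Of 15 luminal markers 12 were in the table, and their summed level spanned 2123 to 2204 CPM over the libraries labelled T47D and 2611 to 3013 CPM over the others. KRT8 and KRT18 (682 ± 18.7 CPM in T47D) made up most of these sums. By edgeR 7 of the 10 tested luminal markers rose, and EPCAM, GATA3 and ERBB3 fell by 1.39, 0.97 and 0.72 on the log2 scale, the GATA3 call being lost with DESeq2. Over all tested genes edgeR called 32.5% higher and 30.5% lower. For 10 mesenchymal markers the sums were 1890 to 1922 and 2547 to 2703 CPM. VIM and CD44 (488 ± 6.26 CPM in T47D and 720 ± 57.6 CPM in T47D-TR) made up most of them. By edgeR 6 of these markers rose, and CAV1 (318 ± 3.16 CPM in T47D), TWIST1 and SNAI2 were not called. AXL fell from 195 ± 2.99 to 117 ± 18.4 CPM. For fibroblast, immune and endothelial cells, 12 of 15 markers were in the table. They summed to 62.2 to 64.1 and 102 to 129 CPM, of which PECAM1 gave 0.669 ± 0.0287 and 27.2 ± 3.81 CPM and CD68 gave 23.7 ± 1.92 and 64.5 ± 9.16 CPM. LUM, a fibroblast marker, fell instead, from 13.9 ± 1.80 to 0.253 ± 0.0872 CPM, and PDGFRB fell from 5.72 ± 0.102 to 3.58 ± 0.313 CPM. DCN and COL1A2 had no counts in T47D, and 4 of the 12 stayed under 1 CPM in every library. The part of these marker shifts in the results below was not tested, and in bulk RNA a change in the share of cells of one kind and a change in RNA per cell cannot be told apart.

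The 3 AKR1C genes were the members that stood furthest apart between the groups. AKR1C1 had 63.3, 58.9 and 58.8 CPM in the T47D libraries and 244, 259 and 523 CPM in T47D-TR replicates 1, 2 and 3. All 3 T47D-TR libraries lay above all T47D libraries, and replicate 3 was far above the other 2. The log2 fold change from edgeR was 2.50 ± 0.35 (SE), or 5.67-fold. AKR1C2 had 10.8, 12.7 and 12.7 CPM in T47D and 222, 211 and 451 CPM in T47D-TR, with the same library on top. Its log2 fold change of 4.61 ± 0.36, or 24.4-fold, was the largest of the 6. AKR1C3 had 23.1, 23.7 and 26.0 CPM in T47D and 161, 159 and 227 CPM in T47D-TR, a log2 fold change of 2.91 ± 0.18 or 7.51-fold, and again no overlap between the groups.

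Outside the AKR1C branch the differences were small. AKR1B1, the aldose reductase gene, had 574, 572 and 560 CPM in T47D and 837, 863 and 993 CPM in T47D-TR. The groups did not overlap, and the log2 fold change was 0.66 ± 0.08, or 1.58-fold. The aldehyde reductase gene AKR1A1 had 31.5, 26.3 and 29.7 CPM in T47D and 35.0, 31.3 and 32.4 CPM in T47D-TR. Its groups overlapped, since T47D replicate 1 lay above T47D-TR replicate 2, and the log2 fold change was 0.17 ± 0.09. AKR7A2 was the member that was lower in T47D-TR, with 19.1, 20.03 and 21.1 CPM in T47D against 16.8, 15.8 and 16.1 CPM, a log2 fold change of -0.31 ± 0.05. That is 0.809 of the T47D level, with no overlap between the groups.

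All 6 members passed the filter on low counts. By edgeR's quasi-likelihood test at an adjusted p under 0.05, 4 members were called higher in T47D-TR, 1 lower and 1 not called. The background was high: the same rule called 63.0% of 15961 tested genes, 32.5% higher and 30.5% lower. Because the members were chosen on this contrast, nothing is read from their count. AKR1A1, with a log2 fold change of 0.17, was the member outside the threshold, and AKR7A2, at -0.31, was the member inside it with the smallest change. In the authors' deposited table the log2 fold changes of the members were 2.50, 4.60, 2.90, 0.65, 0.17 and -0.31 in the order given in the first sentence, and they differed from those of edgeR by at most 0.0075.

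**Figure D1:**
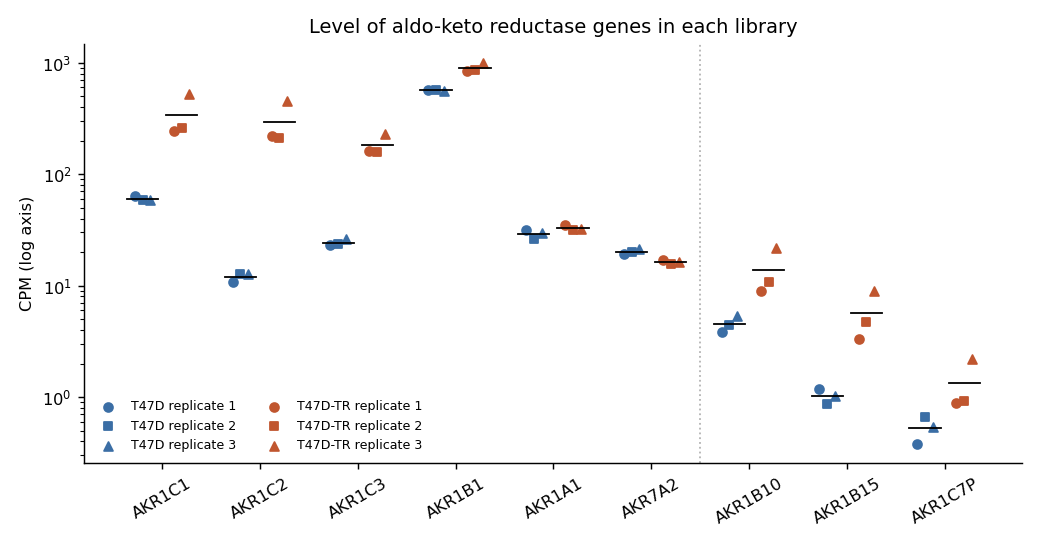
Level of each member, left of the dotted line, and of 3 related genes, in CPM on a log axis. Points are single libraries, bars are group means, and T47D-TR replicate 3 (red triangles) is the highest library for the AKR1C genes, AKR1B1, AKR1B10, AKR1B15 and AKR1C7P.

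To compare levels between genes, CPM was divided by the length of the coding sequence in kilobases, which leaves out untranslated regions. In T47D the order was AKR1B1 at 598 ± 7.65 CPM per coding kilobase, AKR1C1 at 62.0 ± 2.63, AKR1A1 at 29.8 ± 2.70, AKR1C3 at 25.0 ± 1.57, AKR7A2 at 18.6 ± 0.927 and AKR1C2 at 12.4 ± 1.11. AKR1A1 and AKR1C3 were neighbours with nearly touching ranges, 26.9 to 32.2 and 23.8 to 26.8 CPM per coding kilobase. In T47D-TR, AKR1B1 was still first at 944 ± 88.3, and AKR1C1 (352 ± 161), AKR1C2 (303 ± 139) and AKR1C3 (188 ± 40.0) followed, ahead of AKR1A1 at 33.6 ± 1.91 and AKR7A2 at 15.1 ± 0.490. AKR1C2 thus went from the last place to the third. The AKR1C1 and AKR1C2 levels did not differ beyond their spread in T47D-TR, although within each library AKR1C1 was the higher one.

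AKR1C1, AKR1C2 and AKR1C3 lie side by side on chromosome 10. In GRCh38, by GENCODE 29, AKR1C1 spans 4963253 to 4983283 on the plus strand, AKR1C2 spans 4987400 to 5018031 on the minus strand, and AKR1C3 spans 5035354 to 5107686 on the plus strand. AKR1B1 is on chromosome 7, from 134442350 to 134459284 on the minus strand. On chromosome 1 lie AKR1A1, from 45550543 to 45570049 on the plus strand, and AKR7A2, from 19303965 to 19312146 on the minus strand.

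The coding sequences of AKR1C1 and AKR1C2 differ at 19 of 972 bases (98.0% identity), and 19.1% of the 100-base windows of AKR1C1 occur letter for letter in AKR1C2. The handling of such reads, not given in the sources used here, leaves the split between both genes uncertain. AKR1C3 is further away, with 91.5% identity to AKR1C1 and 91.0% to AKR1C2. Still, 2.18% of the 100-base windows of AKR1C1 and 8.25% of those of AKR1C2 occur in AKR1C3, so its counts are not free of this uncertainty. The stretch around codon 54 is shown because it holds 6 of the 19 differences and the codon for the steroid-pocket residue by which AKR1C1 and AKR1C2 differ. Coding bases 130 to 192, counted from the A of the start codon in GENCODE 29 transcripts, read as follows, with bases that differ among the 3 genes in capitals.
AKR1C1: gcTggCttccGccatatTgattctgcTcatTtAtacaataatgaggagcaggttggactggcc
AKR1C2: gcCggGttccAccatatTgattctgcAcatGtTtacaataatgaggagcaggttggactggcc
AKR1C3: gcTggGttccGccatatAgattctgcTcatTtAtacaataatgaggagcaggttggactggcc
Codon 54 is TTA in AKR1C1 and AKR1C3 and GTT in AKR1C2, through T160G and A162T relative to AKR1C1. The other differences of AKR1C2 from AKR1C1 in this stretch are T132C, C135G, G140A and T156A, and those of AKR1C3 are C135G and T147A. Downstream of codon 54 the 3 genes are identical to the end of the stretch.

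The balance between the near-identical genes differed between the groups. AKR1C1 made up 85.4%, 82.3% and 82.2% of the AKR1C1 and AKR1C2 counts in the T47D libraries, and 52.4%, 55.1% and 53.7% in the T47D-TR libraries. The exact (Clopper-Pearson) 95% intervals, which cover counting error only, ran from 80.1% to 87.2% over the T47D libraries and from 51.3% to 56.1% over the T47D-TR libraries. In T47D-TR replicate 3 the share was 53.7%, between those of the other T47D-TR libraries, although both genes were about doubled there. How many reads were assigned to the other gene of the pair was not measured. With AKR1C1 and AKR1C2 summed, which removes the split between them, the level was 72.4 ± 1.48 CPM in T47D and 636 ± 292 CPM in T47D-TR, a log2 fold change of 3.14 ± 0.35 or 8.80-fold.

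**Figure D2:**
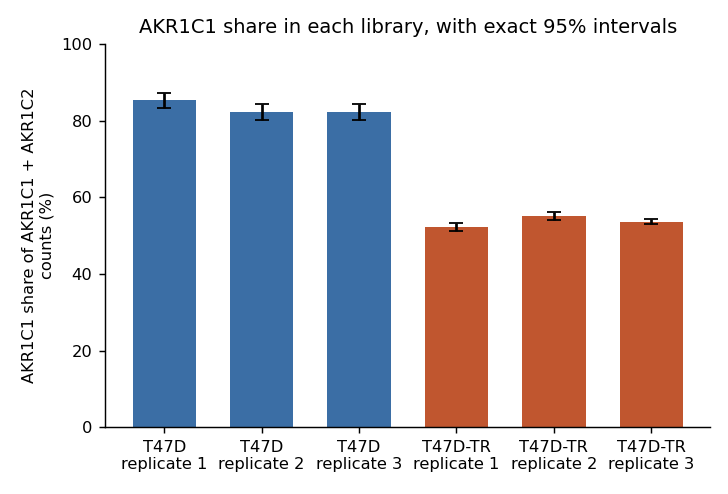
Share of AKR1C1 in the summed AKR1C1 and AKR1C2 counts of each library, in percent, with exact 95% intervals as error bars. The T47D libraries lie between 82.2% and 85.4% and the T47D-TR libraries between 52.4% and 55.1%.

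All 3 AKR1C genes together took 1807, 1864 and 1821 counts in T47D and 12103, 12349 and 20299 counts in T47D-TR. The last of these was 0.118% of its library. Summed AKR1C1 and AKR1C2 counts were 3.20, 3.02 and 2.75 times the AKR1C3 count in T47D. The same ratio was 2.90 and 2.95 in T47D-TR replicates 1 and 2 and 4.28 in replicate 3. In that library, then, AKR1C3 was raised less than its neighbours.

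T47D-TR replicate 3 stood apart from the other T47D-TR libraries to an extent that differed from member to member. It stood 2.08-fold above the mean of the other T47D-TR libraries for AKR1C1 and 2.08-fold for AKR1C2. For AKR1C3 the factor was 1.42 and for AKR1B1 it was 1.17. AKR1A1 at 0.978 and AKR7A2 at 0.990 were level with the other libraries. The same library also held low levels of some fibroblast transcripts that were near 0 elsewhere. COL1A2 had 1.30 CPM there and 0 in the other 5 libraries. COL3A1 had 2.19 CPM against at most 0.155, and DCN 1.12 CPM against at most 0.207. Other fibroblast markers did not stand out there. In T47D-TR replicates 1, 2 and 3 COL1A1 had 17.7, 16.2 and 18.3 CPM. LUM had 0.311, 0.153 and 0.296 CPM, and PDGFRB 3.31, 3.92 and 3.49 CPM. The smooth muscle gene MYH11, chosen after its values were seen, had 7.69 CPM there and 1.99 to 3.012 CPM in the other libraries. The part of such transcripts in the AKR1C levels of this library was not tested, and without it the AKR1C genes still stood apart from T47D, with the values that follow.

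The SD of log2 CPM over the T47D-TR libraries was 0.611 for AKR1C1 and 0.612 for AKR1C2, where the median over all tested genes was 0.114. For AKR1C3 it was 0.292, for AKR1B1 0.132, for AKR1A1 0.081 and for AKR7A2 0.046. In T47D the SD was 0.060 for AKR1C1, 0.132 for AKR1C2 and 0.089 for AKR1C3, against a median of 0.079. T47D-TR was the more variable group over all genes too, with a biological coefficient of variation of 0.0798 against 0.0272 in T47D. Without T47D-TR replicate 3 the log2 fold changes were 2.06 for AKR1C1, 4.17 for AKR1C2, 2.72 for AKR1C3 and 0.58 for AKR1B1, and the SD for AKR1C1 was 0.060.

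**Figure D3:**
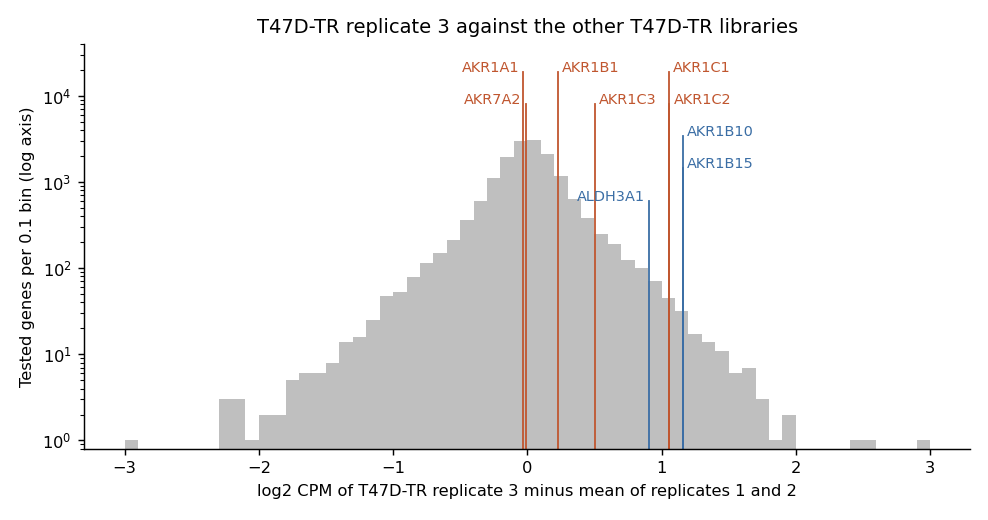
Number of tested genes (log axis) by log2 CPM of T47D-TR replicate 3 minus the mean of T47D-TR replicates 1 and 2, with values beyond 3 drawn at 3. Red lines mark the members and blue lines 3 other genes, and AKR1C1 and AKR1C2 lie at 1.06 beside AKR1B10 and AKR1B15 at 1.16.

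Of the other aldo-keto reductase genes, 12 were listed, 8 were in the table and 6 were tested, of which 2 rose, 2 fell and 2 were not called. Their median log2 fold change was 0.02, against 0.00 for all tested genes, of which edgeR called 32.5% higher and 30.5% lower. AKR1B10, a reductase of retinal and other aldehydes, rose from 4.54 ± 0.718 to 13.9 ± 7.07 CPM (1.59 ± 0.41 on the log2 scale, adjusted p = 0.00042 by edgeR). AKR1B15, its neighbour with 93.5% coding identity, rose from 1.02 ± 0.157 to 5.68 ± 2.95 CPM (2.45 ± 0.43, adjusted p = 6.9e-05 by edgeR). In T47D-TR replicate 3 AKR1B10 was 2.24-fold and AKR1B15 2.23-fold above the other T47D-TR libraries, close to the factor of AKR1C1 and AKR1C2. The split of reads between AKR1B10 and AKR1B15 is also uncertain, although only 1.995% of the 100-base windows of AKR1B10 occur in AKR1B15. For AKR1C1 in AKR1C2 that share was 19.1%. AKR1B1 has 76.8% coding identity to AKR1B10 and no 100-base window in common with it.

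AKR7L, a gene annotated as a polymorphic pseudogene in the same cluster as AKR7A2, fell from 1.21 ± 0.183 to 0.462 ± 0.231 CPM (-1.37 ± 0.36 on the log2 scale, adjusted p = 0.0051 by edgeR). KCNAB2, which encodes a potassium channel beta subunit of the aldo-keto reductase fold, fell from 99.96 ± 2.78 to 44.9 ± 3.89 CPM (-1.16 ± 0.08, adjusted p = 1.3e-08 by edgeR). Its relatives KCNAB1 and KCNAB3 had log2 fold changes of -0.19 and 0.22 and overlapping groups. AKR7A3, with 92.2% coding identity to AKR7A2, and AKR1C8P were at most 0.696 and 0.104 CPM and were not tested. The AKR1C pseudogene AKR1C7P, named here after its values were seen, had 0.377, 0.664 and 0.535 CPM in T47D and 0.880, 0.917 and 2.19 CPM in T47D-TR, highest in the same replicate 3. At these few counts, reads from the AKR1C genes assigned to it could be part of its level, which was not tested.

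Start sites were compared because the AKR1C genes stood higher together in T47D-TR while the levels of AKR1C1 and AKR1C2 differed several-fold in T47D. In the RefSeq promoter table (GRCh38.p14), the 250 bases before the start sites of AKR1C1 and AKR1C2 were identical at 245 of 246 aligned bases. AKR1C1 and the downstream one of the 2 start sites of AKR1C3 in the table, at 5094414, were identical at 184 of 234. All 3 hold CCAAT, on the other strand as ATTGG. AKR1C1 and AKR1C2 hold TGANNNNGC, on the other strand as GCNNNNTCA. This is a loosened form of the core of the antioxidant response element that NRF2 binds, and it allows any base after TGA. In both genes that base is G, where the stricter core has C or T, so neither match holds the stricter core. The 30-base stretches around these matches are shown with the match in capitals, each on the strand of its gene.
AKR1C1 chr10:4963326-4963355: ctctcacatgccATTGGttaaccagcagac
AKR1C2 chr10:5003921-5003950: ctctcacatgccATTGGttaaccagcagac
AKR1C3 chr10:5094316-5094345: ctcctacatgccATTGGttaaccatcagtc
AKR1C1 chr10:4963364-4963393: caggggcgttGCCAGCTCAttgctcttata
AKR1C2 chr10:5003883-5003912: caggggcgttGCCAGCTCAttgctcttata
The ATTGG match begins 77 bases before the start of AKR1C1, 81 before that of AKR1C2 and 86 before that of AKR1C3, and the GCNNNNTCA match begins 41 and 45 bases before the starts of AKR1C1 and AKR1C2. Of 35116 start sites in the table, 32.0% hold CCAAT and 35.2% hold TGANNNNGC on either strand within the same 250 bases, so both are common. TGANTCA, the AP-1 motif, is held by 6.57% and occurs in none of the AKR1C1, AKR1C2 and AKR1C3 windows. GENCODE 29 has longer transcripts of these genes that begin further upstream. These matches are letters in the reference, with no binding measured here.

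The NRF2 axis, 28 listed genes of the factor, its partners and its known targets, did not move in one direction. By edgeR 11 rose, 12 fell and 5 did not pass the test, and the list's median log2 fold change was -0.05. Over all tested genes 32.5% rose and 30.5% fell, the background for this list and for the lists that follow. NFE2L2, which encodes NRF2, rose from 96.0 ± 3.57 to 134 ± 7.63 CPM (0.48 ± 0.06). The small MAF gene MAFF rose from 3.19 ± 0.482 to 22.4 ± 10.5 CPM (2.82 ± 0.48) and the export pump gene ABCC3 from 51.8 ± 5.88 to 162 ± 34.4 CPM (1.64 ± 0.20). KEAP1, the NRF2 inhibitor, went from 0.158 to 0.960 CPM, close to the floor in T47D. Its counts were few in every library, with 2, 4 and 3 in T47D and 20, 13 and 20 in T47D-TR. Its level and the size of its change are therefore poorly resolved. Several standard NRF2 targets fell: HMOX1, encoding haem oxygenase, from 66.5 ± 1.10 to 21.0 ± 8.96 CPM (-1.67 ± 0.34), the quinone reductase gene NQO1 from 733 ± 9.76 to 425 ± 45.9 CPM (-0.79 ± 0.09) and the glutathione reductase gene GSR from 137 ± 5.93 to 78.0 CPM (-0.82 ± 0.05). GCLM and TXNRD1, of glutathione and thioredoxin metabolism, fell by 0.78 and 0.60 on the log2 scale. The AKR1C genes and these targets thus stood on opposite sides in T47D-TR. Within T47D-TR, replicate 3 was above the other 2 libraries for HMOX1 (1.94-fold) and NQO1 (1.20-fold), level with them for GSR (1.00) and below them for NFE2L2 (0.933), BACH1 (0.605) and MAFF (0.386). The median difference of this library from the other 2 was 0.18 on the log2 scale for the NRF2 axis and 0.01 for all tested genes.

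Of 21 tested genes of steroid metabolism, 10 rose and 8 fell by edgeR, and 3 did not pass the test. The median log2 fold change was 0.04. DHRS9, a short-chain dehydrogenase of retinol and steroids, rose from 0.0887 ± 0.063 to 5.55 ± 1.31 CPM (adjusted p = 6.4e-08 by edgeR). HSD3B1, a gene of progesterone synthesis, rose from 0.159 to 1.64 ± 1.12 CPM, and the sulphotransferase gene SULT2B1 from 0.159 to 1.02 ± 0.380 CPM. In T47D the counts were 3, 1 and 1 for DHRS9, 5, 3 and 1 for HSD3B1 and 4, 2 and 3 for SULT2B1. These lie around the 3-count floor, so the size of the rises is poorly resolved. HSD11B2, which inactivates cortisol, fell from 2.87 ± 0.573 to 0.268 ± 0.0838 CPM (-3.39 ± 0.24). The oestrogen hydroxylase gene CYP1B1 fell from 66.3 ± 1.77 to 27.2 ± 2.48 CPM (-1.29 ± 0.08), and HSD17B7 fell by 0.97 on the log2 scale. Without T47D replicate 1 the steroid genes that fell numbered 5.

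Among 27 tested genes of other aldehyde and carbonyl enzymes, 11 rose and 11 fell by edgeR, 5 did not pass the test, and the median log2 fold change was -0.16. ALDH3A1, an aldehyde dehydrogenase that oxidises products of lipid peroxidation, had 4.46, 4.39 and 4.12 CPM in T47D and 33.04, 44.9 and 72.3 CPM in T47D-TR (3.52 ± 0.33, adjusted p = 2e-07 by edgeR). Like AKR1C1, it was highest in T47D-TR replicate 3, at 1.86-fold above the other T47D-TR libraries. ALDH6A1 and DHRS3 rose by log2 fold changes of 1.47 ± 0.12 and 1.33 ± 0.17, while ESD and DHRS4 fell by 0.83 and 0.55 on the log2 scale. ADI1, a dioxygenase gene that was listed with these enzymes, fell by 0.60.

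In the methylglyoxal and polyol pathway, in which AKR1B1 acts, 0 of 10 tested genes rose, 2 fell and 8 were not called by edgeR. At an unadjusted p under 0.05 edgeR also had 0 higher, and DESeq2 called 0 higher. The 2 that fell were GLO1, the glyoxalase gene, from 206 ± 8.59 to 148 ± 15.9 CPM (-0.48 ± 0.10), and PARK7, from 161 ± 5.02 to 111 ± 5.68 CPM (-0.54 ± 0.05). The list's median log2 fold change was -0.04, beside 0.66 for AKR1B1 itself.

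Of 17 tested prostaglandin pathway genes, 9 rose and 5 fell by edgeR, 3 did not pass the test, and the median log2 fold change was 0.59. The prostaglandin transporter gene SLCO2A1 rose from 0.937 ± 0.243 to 27.7 ± 10.2 CPM (4.89 ± 0.38, adjusted p = 6.4e-08 by edgeR). HPGD, which inactivates prostaglandins, rose from 0.568 ± 0.399 to 8.87 ± 1.42 CPM (3.96 ± 0.50). PTGDS, a synthase of prostaglandin D, had 1, 0 and 1 counts in T47D and 14, 18 and 11 in T47D-TR. PTGDR2, a receptor of prostaglandin D, fell from 8.68 ± 0.869 to 3.23 ± 0.336 CPM (-1.42 ± 0.12), and ABCC4 and PTGES3 fell by 0.69 and 0.44 on the log2 scale. SLCO2A1 ran against the AKR1C genes inside T47D-TR, with replicate 3 at 0.531 of the mean of the other libraries.

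Of 16 tested retinoid pathway genes, DHRS9 among them, 8 rose and 3 fell by edgeR while 5 did not pass the test, and the list's median log2 fold change was 0.16. CYP26B1, which degrades retinoic acid, rose from 3.47 ± 0.446 to 25.6 ± 3.35 CPM (2.88 ± 0.15), and the retinol uptake receptor gene STRA6 from 3.799 ± 0.185 to 26.6 ± 3.23 CPM (2.80 ± 0.11). The genes that fell were CRABP2, a retinoic acid carrier, by 0.82 on the log2 scale, and the dehydrogenase genes DHRS4 and RDH13 by 0.55 and 0.43. Without T47D-TR replicate 1, and likewise without replicate 2, the retinoid genes that rose numbered 5, and with voom and quantile normalization those that fell numbered 5.

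**Figure D4:**
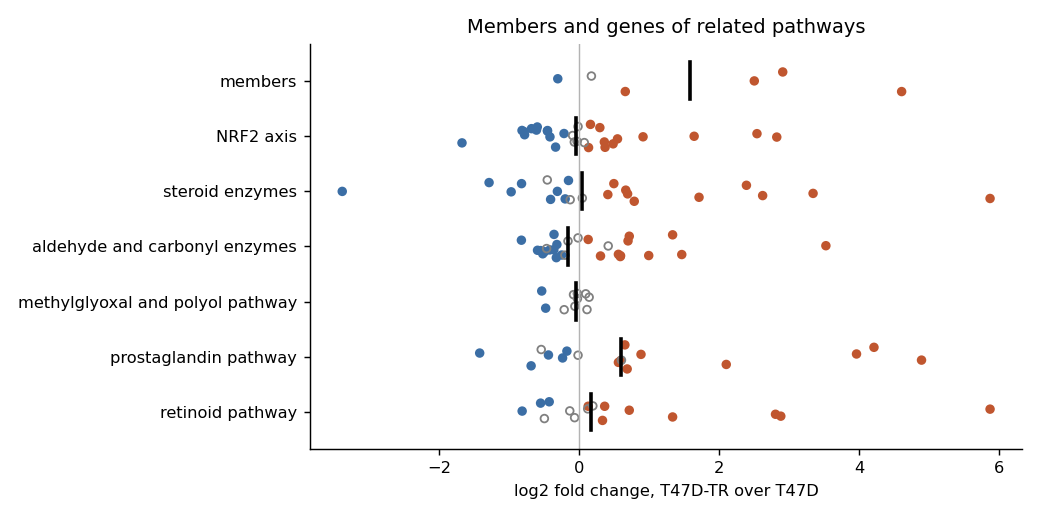
Log2 fold change of the members and of the tested genes of 6 related lists, T47D-TR over T47D. Filled points were called by edgeR (red higher, blue lower), open grey points were not, and black bars are medians, which lie between -0.16 and 0.59 for the 6 lists.

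Genes within 1 Mb of the AKR clusters, looked at after the member values were seen, served as a local comparison on each chromosome. For all tested genes the shares called by edgeR were 32.5% higher and 30.5% lower. Around the AKR1C genes 7 other genes were tested, of which 1 rose and 4 fell, with a median log2 fold change of -0.21 and a highest value of 0.32. All 7 lay on the AKR1C3 side, and none before AKR1C1 was tested. The nearest, NET1, starts at 5412551, whereas AKR1C3 ends at 5107686. In T47D-TR replicate 3 these 7 genes stood at 0.984 to 1.15 times the other T47D-TR libraries. Around AKR1B1, AKR1B10 and AKR1B15 there were 11, of which 1 rose and 4 fell, with a median of -0.16. Around AKR7A2 and AKR7L there were 13, of which 1 rose and 10 fell, and their median of -0.48 was below the -0.31 of AKR7A2. The same replicate 3 factor ran from 0.697 to 2.60 around the AKR1B genes, with LRGUK, at under 1 CPM on average in both groups, at the top, and from 0.524 to 1.17 around AKR7A2.

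**Figure D5:**
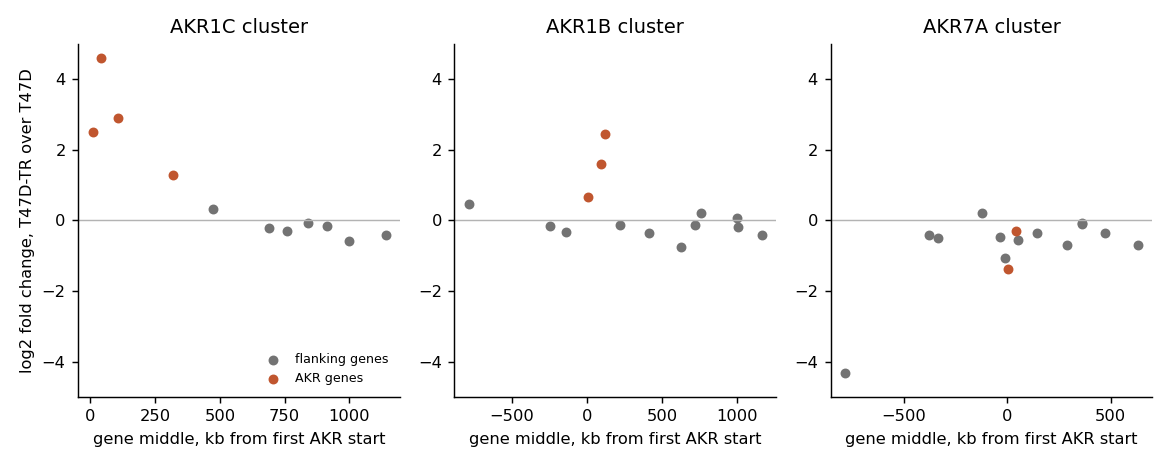
Log2 fold change, T47D-TR over T47D, of tested genes by distance in kilobases from the start of the first AKR gene of each cluster to the middle of the gene. Red points are AKR genes, with AKR1C1 to AKR1C3 at 2.50 to 4.61, and grey points are other genes within 1 Mb, none of which exceeds 0.46.

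Genes with the pattern most like each member were ranked by the root mean square difference in log2 CPM, centred on the T47D mean, over the 6 libraries. For AKR1C1 these were SLC22A3, an organic cation transporter gene (0.16), AGAP11 (0.19) and AKR1B15 (0.19), where the median over all tested genes was 1.75. AKR1B15 is itself an aldo-keto reductase gene. SLC22A3, AGAP11 and AKR1B15 averaged 1.27, 0.228 and 1.02 CPM in T47D. The prior count of 2 affects the place of genes this low, AGAP11 most. AKR1C3 was closest to KCNMB4 (0.10), GSN, which encodes the actin-severing protein gelsolin (0.14), and TEF (0.14). KCNMB4, at 0.914 CPM on average in T47D, is under the same limit. The measure placed PADI3 (0.31) and LOC105378111 (0.33) near AKR1C2, but they had 0.035 and 0 CPM on average in T47D. At such levels the prior count of 2 sets their place, so no likeness to AKR1C2 is read from it. AKR1B1 was nearest to ACP2, ANXA4 and CPD at 0.04, AKR1A1 to CFAP57, FAM188A and IRF2 at 0.04 to 0.05, and AKR7A2 to RBM48 at 0.02 and EEF1E1 at 0.03. Between members, AKR1C1 and AKR1C3 were 0.39 apart and AKR1C1 and AKR1C2 1.49 apart.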

How the data were processed

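Total RNA of T47D and T47D-TR was sequenced in 3 libraries each, grouped by title. Per the submitters' processing notes, HISAT2 2.1.0, GRCh38 and DESeq were used. Counter, strand setting and annotation: not given in the sources used here. Counts per gene, as whole numbers, fill the table deposited by the authors, although its name says FPKM, with 0 per-sample columns unused. The authors also deposited a log2 fold change, set to 20 in size where a group is at 0.

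Members and lists were chosen with earlier results of these data known. Counts were filtered with filterByExpr (minimum count 10, minimum total 15), scaled by TMM and compared with edgeR 4.0.16 glmQLFit and glmQLFTest in R 4.3.3, 2-sided, with a call at a p under 0.05 after Benjamini-Hochberg adjustment over 15961 genes. CPM uses TMM library sizes. The SE comes from the spread of log2 CPM (prior count 2) and is too small where counts are few. Named genes were the members, the other aldo-keto reductase genes, the luminal markers, per list the 3 highest and 3 lowest called genes without group overlap, and the 3 genes most like each member, of which some are not reported here; NFE2L2, GCLM, TXNRD1, BACH1, MYH11, AKR1C7P, LRGUK and the non-luminal markers were added after their values were seen. Alternatives used DESeq2 1.42.0, limma 3.58.1 and other scalings. The procedure was tested on simulated data. Sequences are from GENCODE 29 and RefSeq GRCh38.p14, and no protein sequences were used here.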

Additional observations from a re-analysis of the deposited data

How the results depend on the processing

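Of the 6 member differences in log2, the direction was the same under every alternative tried: DESeq2, other scalings, voom with quantile normalization, no filter, the replicate block, each library left out and no prior count. Quantile normalization with voom moved all log2 fold changes by a median of -0.11; with it AKR7A2 stood at -0.43, and TWIST1 (-0.10) and CAV1 (0.021), neither of which was called, changed direction. The log2 fold change spanned 2.06 to 2.69 for AKR1C1, 4.17 to 4.80 for AKR1C2 and 2.72 to 2.998 for AKR1C3 with 1 library left out. With the replicate block, 9954 genes and 6 members were called against 10053 and 5; the block gave AKR1C1 2.41 and AKR1C2 4.54. Same-numbered libraries did not vary together (r of deviations -0.005, -0.021 and -0.014 across genes), so they share only a number. AKR1A1 was also called without T47D replicate 1 and without T47D-TR replicate 3. With 1 T47D-TR library left out, the SD of log2 CPM in T47D-TR was 0.060 to 0.777 for AKR1C1, 0.053 to 0.775 for AKR1C2, 0.0087 to 0.362 for AKR1C3, 0.032 to 0.175 for AKR1B1, 0.035 to 0.112 for AKR1A1 and 0.023 to 0.065 for AKR7A2, lowest without replicate 3 for the first 4 and without replicate 1 for the other 2. Of 55 named list and marker genes called, 52 were called under all 12 alternatives; GATA3 was lost with DESeq2, CDH2 without T47D replicate 2 and ZEB1 in 6. Without T47D replicate 1 the steroid genes called lower numbered 5 in place of 8, and without T47D-TR replicate 1 or 2 the retinoid genes called higher numbered 5 in place of 8. With voom the retinoid genes called lower numbered 5 in place of 3, and with no filter 1 methylglyoxal and polyol gene was called higher. Genes under the 3-count floor in a group were not resolvable at this depth.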
